A study of Mus musculus with 14 samples.

Results

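Among the 54532 genes counted in 14 mouse heart libraries, 26735 had symbols made of Gm and digits, the provisional names of mouse gene models. Of these, 9 had a mean of 5000 CPM (counts of a gene per 1000000 counts of its library) or more across the 14 libraries, and they are the subject of the values below. In order of their mean level they were Gm28437, Gm10925, Gm28661, Gm29216, Gm28438, Gm42418, Gm13339, Gm28439 and Gm10222. The genes were chosen by these CPM values over all 14 libraries, and the levels are given as a description and without a test. The cutoff fell in a wide gap. The lowest of the 9, Gm10222, had a mean of 6019 CPM, and the next Gm-named genes, Gm12338, Gm13341 and Gm13340, had means of 863, 851 and 795 CPM, so that a cutoff of 1000 CPM chose the same 9 genes.

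Hearts of C57BL/6 mice were taken on postnatal day 180 according to the labels, while the study's text gives an older age for these experiments, and the age is therefore in doubt. The YG8-800 experiment held 4 libraries labelled WT (wild type) and 4 labelled YG8-800, a humanised model of Friedreich ataxia in which both copies of the mouse disease gene lack an exon and a human transgene with a long GAA repeat is carried in the hemizygous state. The KIKO-700 experiment held 3 female (F) and 3 male (M) KIKO-700 hearts, in which an allele of the same gene is deleted and the other carries a knocked-in GAA repeat. Wild-type hearts of the KIKO-700 cohort were not analysed here, and the comparison within KIKO-700 is therefore between the sexes. Libraries are called by their labels, and whether the labels WT and YG8-800 stand for the genotypes was not settled here. Nothing in the labels says how the hearts of a group were related, so that p-values measure the spread between these libraries. RNA was read from the 3′ ends of polyadenylated transcripts with a QuantSeq forward kit, as single reads of 86 bases. Total counts ranged from 5226233 to 11650840 per library, and the summed level of 8 marker genes of ventricular heart muscle ranged from 22755 to 49314 CPM. Xist, an RNA made in female cells, was over 10 CPM in 5 of the 8 libraries of the YG8-800 experiment and in all 3 female KIKO-700 libraries, and at most 1.29 CPM in the others. The study's text describes the mice of the YG8-800 experiment as male, so that these 5 libraries go against it.

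Mitochondria keep a small circular genome, called chromosome M in the annotation, which encodes subunits of the respiratory chain and of ATP synthase along with the ribosomal and transfer RNAs of the organelle. It is transcribed as long precursors that are cut into single RNAs, and most of its messenger RNAs carry short poly(A) tails, which places them within reach of libraries primed on poly(A). Heart muscle is rich in mitochondria and in these RNAs. Over evolution, pieces of mitochondrial DNA have been copied into the nuclear chromosomes, where the annotation lists them as pseudogenes. A read from a recent copy and a read from mitochondrial RNA can have the same letters.

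By sequence, 8 of the 9 genes were copies of chromosome M genes. All 8 were annotated as unprocessed pseudogenes with 1 exon. Positions are those of GENCODE M21 on GRCm38, and sequences are those of the GENCODE M21 transcripts, read 5′ to 3′ on the strand of the gene. On the minus strand of chromosome 1, 7 of them lay within a block of 4663 bases, chr1:24611535-24616197, in the order Gm29216, Gm28661, Gm10925, Gm28437, Gm28438, Gm10222 and Gm28439. That is the order of their counterparts mt-Co1, mt-Co2, mt-Atp6, mt-Co3, mt-Nd3, mt-Nd4l and mt-Nd4 along bases 6381 to 11042 of chromosome M, a stretch of 4662 bases. The eighth, Gm13339 (chr2:22590024-22590533, minus strand), matched the last 510 bases of mt-Nd2. Gm42418 (chr17:39846958-39848788, plus strand), a long intergenic non-coding RNA, had no match on chromosome M. Their Ensembl identifiers, in the order of mean level, were ENSMUSG00000101111, ENSMUSG00000100862, ENSMUSG00000102070, ENSMUSG00000101249, ENSMUSG00000101939, ENSMUSG00000098178, ENSMUSG00000082884, ENSMUSG00000100131 and ENSMUSG00000067736.

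The sequences below are 86 bases, the length of a read, of each kind of pair, and for Gm13339 a longer stretch of 150 bases that takes in its last 3 differences. They were chosen to show how much the copies have in common. Capitals mark bases that differ between the gene and its chromosome M counterpart. The last 86 bases of Gm28437 (chr1:24613189-24613274, minus strand) and bases 698 to 783 of mt-Co3 (chrM:9304-9389, plus strand) were the same.
Gm28437: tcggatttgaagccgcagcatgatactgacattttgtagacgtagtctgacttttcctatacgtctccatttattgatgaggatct
mt-Co3: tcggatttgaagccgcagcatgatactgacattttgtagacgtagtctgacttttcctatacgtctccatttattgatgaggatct
The first 86 bases of Gm28438 (chr1:24613034-24613119, minus strand) held its only difference from mt-Nd3 (chrM:9459-9544, plus strand), T3C, written with the chromosome M base, the position from the 5′ end of the Gm-named gene, and the base of that gene.
Gm28438: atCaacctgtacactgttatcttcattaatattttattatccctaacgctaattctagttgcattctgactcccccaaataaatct
mt-Nd3: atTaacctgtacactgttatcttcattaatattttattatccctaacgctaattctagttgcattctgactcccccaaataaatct
Gm29216, which matched the last 492 bases of mt-Co1, had 6 differences (T3A, C4T, A6G, A7G, C9A and A13T), all among its first 13 bases (chr1:24616112-24616197, minus strand, beside chrM:6381-6466, plus strand).
Gm29216: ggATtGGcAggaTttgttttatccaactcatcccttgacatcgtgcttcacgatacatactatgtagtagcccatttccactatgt
mt-Co1: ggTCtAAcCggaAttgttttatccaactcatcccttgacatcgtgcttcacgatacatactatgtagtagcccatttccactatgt
Gm13339 had 17 differences over 510 bases, of which 3 (A463G, C471T and C506T) fell in its last 150 bases (chr2:22590024-22590173, minus strand, beside chrM:4802-4951, plus strand).
Gm13339: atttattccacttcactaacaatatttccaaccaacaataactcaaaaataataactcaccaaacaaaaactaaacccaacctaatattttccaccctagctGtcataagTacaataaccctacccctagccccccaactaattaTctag
mt-Nd2: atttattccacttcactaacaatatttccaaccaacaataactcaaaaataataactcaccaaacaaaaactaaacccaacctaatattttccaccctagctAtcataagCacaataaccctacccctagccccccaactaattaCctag
The last 86 bases of Gm42418 (chr17:39848703-39848788, plus strand) are shown because this gene alone among the 9 had no counterpart on chromosome M.
Gm42418: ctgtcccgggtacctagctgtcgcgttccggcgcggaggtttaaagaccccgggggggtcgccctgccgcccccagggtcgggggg

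The remaining pairs differed less. Gm28437, Gm10925, Gm28661, Gm28439 and Gm10222 had no difference from mt-Co3, mt-Atp6, mt-Co2, the first 876 bases of mt-Nd4 and mt-Nd4l over their whole lengths of 783, 678, 681, 876 and 294 bases. Cut into every possible window of 86 bases, the length of a read, these 5 genes had all of their windows (698, 593, 596, 791 and 209) on chromosome M without a change. For Gm28438 the count was 257 of 260 windows and for Gm29216 it was 394 of 407. Gm13339 stood apart, with 44 of 425 windows unchanged on chromosome M, all of them between its differences at positions 333 and 463. Gm42418 had 0 of 1746. Instead, its first 1244 bases were the reverse complement of part of CT010467.1, a ribosomal RNA model at the same place on chromosome 17, and bases 156 to 1078 were the reverse complement of AY036118, without a difference in either. A further match to the reverse complement of CT010467.1 covered bases 1146 to 1831 at an identity of 98.4%. The matches to CT010467.1 thus reached from the first to the last base of Gm42418. Those 2 models, on the minus strand, held at most 0.375 and 0.250 CPM in any library.

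Among all nuclear gene models of the annotation, 20 aligned to chromosome M over 80% or more of their length, and these 8 genes were among them. All 20 had names of Gm and digits, so that the cutoff of 5000 CPM itself placed these 8 above the 12 others in level. The 7 on chromosome 1 were the 7 with an identity of 99% or more in the aligned bases. Whether identity goes with level was not tested. The 12 other models had identities of 81.6% to 97.6% and mean levels of 0.105 to 851 CPM. The 2 highest of them, Gm13341 and Gm13340, lay beside Gm13339 on chromosome 2 and matched mt-Co2 and mt-Co1 at identities of 95.9% and 97.6%. Gm28661 and Gm29216 matched the same chromosome M genes with fewer differences and had means of 31017 and 25014 CPM.

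**Figure D1:**
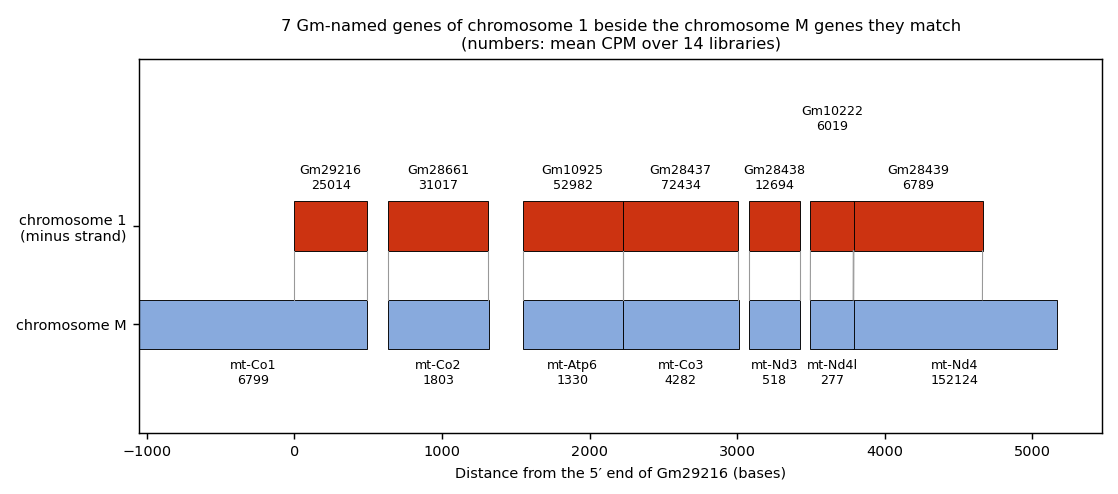
Position of the 7 Gm-named genes of chromosome 1 (red) above the chromosome M genes they match (blue), as distance in bases from the 5′ end of Gm29216, with lines joining the ends of each match and mean CPM over 14 libraries beside each gene. Both rows follow the same order, and the larger number stands on the Gm-named gene in 6 of the 7 pairs, all but Gm28439 and mt-Nd4.

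Together the 9 genes took 17.1% to 27.4% of the counts of a library (median 22.9%), and the 37 chromosome M genes took 28.9% to 44.6% (median 35.8%), so that 48.3% to 67.7% of all counts lay on both sets. Outside them the most abundant gene of a library took at most 1.47%. The 9 genes held 23.2% ± 2.23 of the counts in WT (SD, n = 4) and 25.4% ± 1.61 in YG8-800 (SD, n = 4), a difference of 2.17 percentage points beside a pooled SD of 1.95. In KIKO-700 they held 20.6% ± 0.319 in F and 20.1% ± 2.79 in M (SD, n = 3 each), a difference of -0.542 points beside a pooled SD of 1.98. In each comparison the ranges overlapped. The lowest share of all was that of KIKO-700 M 1, at 17.1%, and the highest that of YG8-800 2, at 27.4%.

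Gm28437, the copy of the gene for subunit 3 of cytochrome c oxidase, had the second highest mean of all genes counted, behind mt-Nd4. Its level was 59452, 63450.3, 54654 and 66788 CPM in WT 1 to 4 and 54073, 74737, 60658 and 66814 CPM in YG8-800 1 to 4. KIKO-700 F 1 to 3 had 86933, 90709 and 94271 CPM, and KIKO-700 M 1 to 3 had 73918, 79843 and 87775 CPM. The 2 groups of each experiment overlapped, and the KIKO-700 libraries were higher than all but YG8-800 2. Gm10925, the copy of the gene for subunit a of ATP synthase (mt-Atp6), came next among the 9 with a mean of 52982 CPM. Its lowest value was 35496 CPM in WT 1, and the other 13 libraries lay between 45439 and 65967 CPM. Gm28437 was above Gm10925 in 14 of 14 libraries, the only pair of neighbours in the order of means that kept its order throughout.

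Gm28661, the copy of the gene for subunit 2 of cytochrome c oxidase, varied more. It was at 15444, 40830.3, 30155 and 37674 CPM in WT, at 54945, 56009.6, 29508 and 34034 CPM in YG8-800, at 23782, 20745 and 19781 CPM in KIKO-700 F and at 14139.9, 26915 and 30270.5 CPM in KIKO-700 M. WT 1 and KIKO-700 M 1 were the lowest libraries of their experiments. Gm28438, the copy of the gene for subunit 3 of respiratory complex I, was counted at 5690.2, 15266, 14165 and 15065 CPM in WT and 18014, 31223, 9977 and 12478 CPM in YG8-800. Its level in WT 1 lay far below the 3 other WT libraries. Over the 8 libraries of the YG8-800 experiment the log2 levels of Gm28661 and Gm28438 had a Pearson correlation of 0.94, and over the 6 of the KIKO-700 experiment it was 0.98, given as a description of libraries that share depth and scaling. Gm10222, the copy of the gene for subunit 4L of complex I, had the lowest mean of the 9 and ranged from 3499 CPM in WT 1 to 7197 CPM in KIKO-700 M 3.

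**Figure D2:**
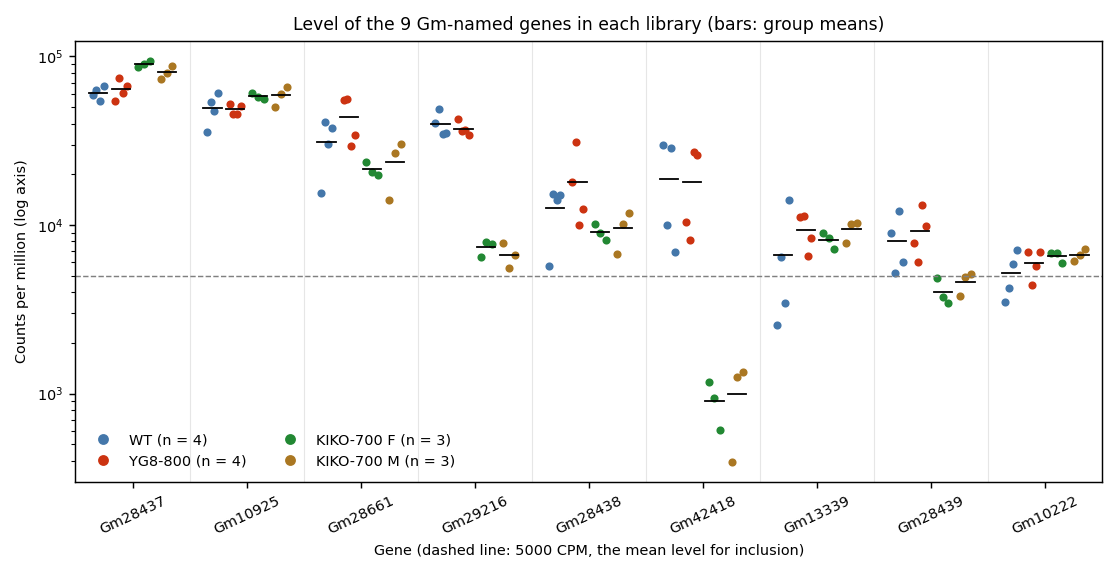
Level of each of the 9 genes in each library in CPM on a log axis, with 1 point per library, coloured by group, and bars at group means. Gm29216, Gm42418 and Gm28439 are lower in all 6 KIKO-700 libraries than in all 8 libraries of the YG8-800 experiment, and the groups within each experiment overlap for all 9 genes.

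The ranges of the 2 experiments did not overlap for 3 of the genes. Gm29216, the copy of the 3′ part of the gene for subunit 1 of cytochrome c oxidase, lay between 34016 and 48514 CPM (median 36529) in the YG8-800 experiment and between 5549 and 7978 CPM (median 7206) in the KIKO-700 experiment, and the ratio of the means was 5.48. Gm42418 lay between 6942 and 29990.5 CPM (median 18343) in the former and between 396 and 1343 CPM (median 1056) in the latter, with a ratio of 19.3. For Gm28439, the copy of the 5′ part of the gene for subunit 4 of complex I, the ranges were 5229 to 13229 and 3472 to 5099 CPM, with a ratio of 2.01. Line, cohort and library batch cannot be told apart in this difference. Of 9 lists of cell type markers, the summed levels of 3 were also apart between the experiments. They were blood, at 1481 to 6790.1 CPM in the YG8-800 experiment and 14081 to 19095 CPM in the KIKO-700 experiment, atrial muscle, at 82.7 to 1420.0 and 1660.1 to 2326 CPM, and endothelium, at 115 to 212 and 268 to 414 CPM. Their part in these levels was not tested. In bulk tissue, fewer cells of a type and less RNA per cell cannot be told apart.

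Reads near the 3′ end stand for whole transcripts in this kind of library, so that CPM was not divided by length above. Per kilobase of exon, Gm28437 remained first at 92508 CPM and Gm10925 second at 78145 CPM, and Gm42418, the longest of the 9, came last at 5979.9 CPM per kilobase.

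Each copy was then related to its chromosome M gene within a library, as the share of the counts of both that lay on the Gm-named gene. In 5 pairs, those of mt-Co3, mt-Atp6, mt-Co2, mt-Nd3 and mt-Nd4l, the Gm-named gene matched the chromosome M gene over all but its last 1 to 3 bases. In these pairs together 91.0% to 97.4% (median 95.9%) of the counts of a library lay on the Gm-named genes. The mean level of mt-Co3 was 4282 CPM beside 72434 CPM for Gm28437, and mt-Atp6 had 1330.1 CPM beside 52982 CPM for Gm10925. For mt-Co2 and Gm28661 the means were 1803 and 31017 CPM, for mt-Nd3 and Gm28438 they were 518 and 12694 CPM, and for mt-Nd4l and Gm10222 they were 277 and 6019 CPM. In single libraries the Gm-named gene was 7.10 to 78.6 times as high as its counterpart across these pairs.

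The 3 pairs in which the chromosome M gene reached well beyond the copy behaved otherwise. Gm29216 covers the last 492 of the 1545 bases of mt-Co1, and 79.1% to 87.6% of the pair was counted on it in the YG8-800 experiment, against 52.4% to 61.0% in the KIKO-700 experiment. Gm28439 covers the first 876 bases of mt-Nd4 and leaves out its last 502 bases, and held 1.80% to 9.54% of its pair. With a mean of 152124 CPM, mt-Nd4 was the gene with the most counts of all. Gm13339 covers the last 510 bases of mt-Nd2 with 17 differences, and held 4.16% to 25.8%. The chromosome M genes without any of the 9 as a copy and with means of 5000 CPM or more were mt-Cytb at 60491 CPM, mt-Nd1 at 47495 CPM, mt-Rnr2 at 24709 CPM, mt-Nd5 at 8417 CPM and mt-Rnr1 at 8232 CPM.

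**Figure D3:**
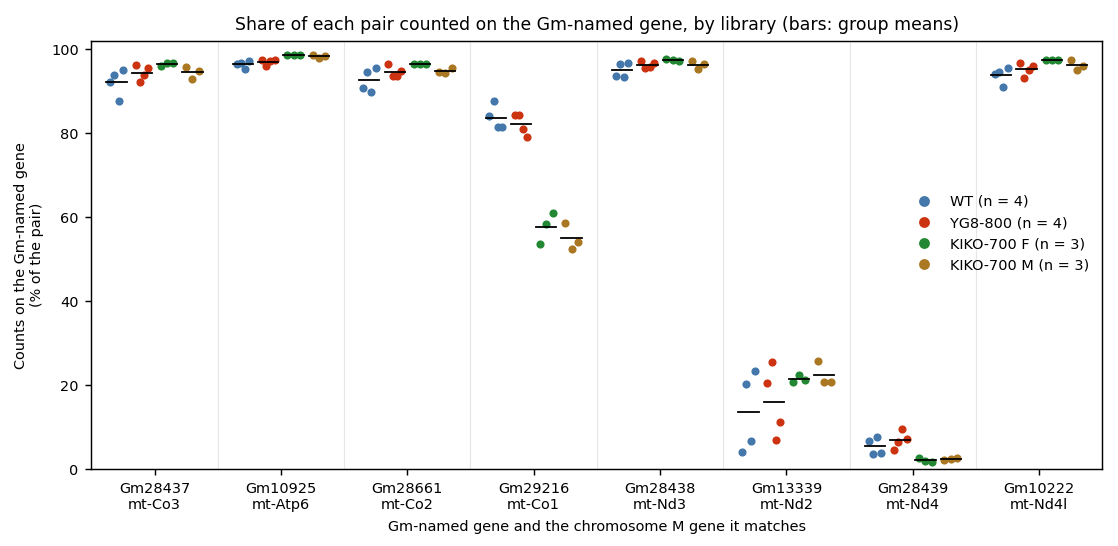
Percentage of the counts of each pair that lay on the Gm-named gene, with 1 point per library, coloured by group, and bars at group means. The 5 pairs with nearly whole copies sit between 87.7% and 98.7%, Gm29216 lies between 52.4% and 87.6%, and Gm13339 and Gm28439 lie between 1.80% and 25.8%.

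Gm13339 varied widely in its share between libraries of the same label in the YG8-800 experiment. It held 4.16%, 20.4%, 6.77% and 23.5% of its pair in WT 1 to 4 and 20.5%, 25.6%, 7.12% and 11.2% in YG8-800 1 to 4, while the 6 KIKO-700 libraries had 20.7% to 25.8%. WT 1, WT 3, YG8-800 3 and YG8-800 4 were thus lower than all the others. The level of mt-Nd2 in those libraries was 59044, 47731, 85694 and 66439 CPM, the highest of the 14, and that of Gm13339 was 2561, 3467, 6569 and 8362 CPM. In the YG8-800 experiment the SD of the log2 ratio of Gm13339 to mt-Nd2 was 1.13, more than that of either gene (0.86 and 0.56), and in the KIKO-700 experiment it was 0.16, less than that of either (0.20 and 0.32).

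Gm42418 was high in the same 4 libraries. It was counted at 29990.5, 10052, 28521 and 6942 CPM in WT 1 to 4, at 10495, 8201, 27176 and 26191 CPM in YG8-800 1 to 4, at 1172, 941 and 606 CPM in KIKO-700 F and at 396, 1262 and 1343 CPM in KIKO-700 M. Each label of the YG8-800 experiment thus held 2 libraries at 26191 CPM or more and 2 at 10495 CPM or less. The genes most like it over the 14 libraries, by the Spearman correlation of normalised log2 levels, were mt-Rnr1 and mt-Rnr2, the ribosomal RNAs of the mitochondrion, each with 0.99, although neither matches it in sequence. mt-Rnr2 was counted at 46965, 23881, 82387 and 13716 CPM in WT, at 17201, 14156, 71658 and 57524 CPM in YG8-800, and at 1766 to 3826 CPM in KIKO-700. The log2 ratio of Gm42418 to mt-Rnr2 had an SD of 0.46 over the 14 libraries, against 2.28 for the log2 level of Gm42418 itself. It ranged from -1.53 to -0.65 in the YG8-800 experiment and from -2.16 to -1.46 in the KIKO-700 experiment. Much of the difference over 14 libraries lies between the experiments, and the correlation has no test.

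**Figure D4:**
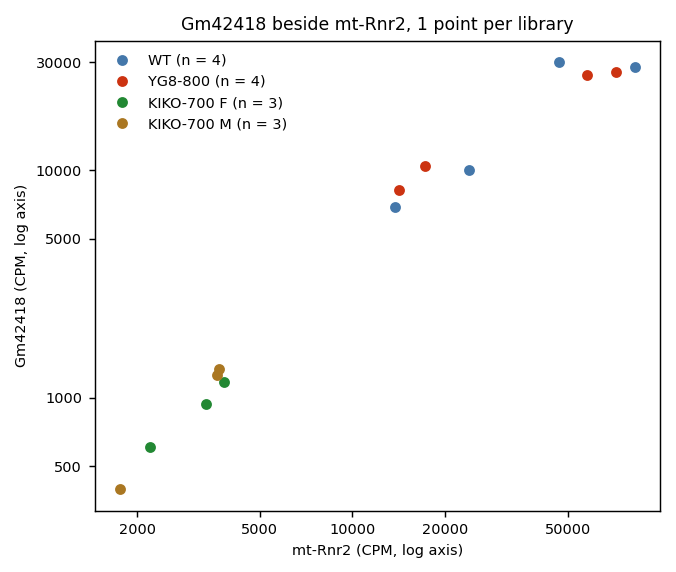
Level of Gm42418 against that of mt-Rnr2 in CPM, both on log axes, with 1 point per library, coloured by group. The KIKO-700 libraries lie at the lower left, and the 8 libraries of the YG8-800 experiment fall into 4 high and 4 lower ones with both labels in each.

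Within each experiment, the log2 CPM of each Gm-named gene was correlated with that of its chromosome M gene (for Gm42418, with the sum of the protein-coding chromosome M genes). Of the 18 relations, 9 were not tested because the libraries fell into separate clusters in a measure, namely that of Gm42418 in the YG8-800 experiment and those of all genes but Gm13339 in the KIKO-700 experiment. In the other 9, with Pearson and Spearman coefficients tested by exact two-sided permutation and 18 p-values adjusted together, no adjusted p was under 0.05. The highest coefficients were those of Gm13339 with mt-Nd2 in the KIKO-700 experiment (Pearson 0.90, exact p = 0.0181, adjusted 0.149, Spearman 0.94, exact p = 0.0167, adjusted 0.149, n = 6) and of Gm28438 with mt-Nd3 in the YG8-800 experiment (Pearson 0.76, exact p = 0.0248, adjusted 0.149, Spearman 0.76, exact p = 0.0368, adjusted 0.165, n = 8). Without the 2 libraries farthest from the median of the chromosome M gene these were 0.97 and 0.83. The relation of Gm29216 with mt-Co1 in the YG8-800 experiment had a negative sign (Pearson -0.55, exact p = 0.153, adjusted 0.395, n = 8), and the sign turned with the scaling, to 0.42 when both levels were divided by the counts outside chromosome M and the 9 genes. Gm28437, which has the highest level of the 9, and mt-Co3 had a coefficient of 0.17 (exact p = 0.692, adjusted 0.830, n = 8).

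YG8-800 libraries were set against WT libraries, as labelled, by edgeR's quasi-likelihood test over all 11875 genes with sufficient counts, a filter that all 9 passed. By Benjamini-Hochberg adjusted p under 0.05, 0 of the 9 genes were called, and percent called over all genes was 0%. At an unadjusted p under 0.05, 0 of the 9 were called, against 6.05% of all genes. DESeq2, limma-voom and limma-trend also called 0 of 9, and by DESeq2 the number over all genes was 7. The 9 log2 fold changes ranged from 0.12 to 0.61 with a median of 0.34, all above 0, beside a median of -0.0056 over all genes. The largest were those of Gm28661 (0.61, SE 0.41, edgeR adjusted p = 0.867), Gm28438 (0.56, SE 0.43, adjusted p = 0.884) and Gm13339 (0.55, SE 0.53, adjusted p = 0.907). Scaled by library size alone, 3 of the 9 (Gm10925, Gm29216 and Gm42418) fell below 0, at -0.021, -0.087 and -0.068, as the median of all genes moved to -0.21. In none of the 9 genes were the normalised levels of the 2 groups apart, whereas those of 3.84% of 13023 genes were.

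Without WT 4 the edgeR call over all genes rose to 146 of 12276, with 0 of the 9 genes at an adjusted p under 0.05. At an unadjusted p under 0.05 it was 1 of the 9, Gm13339, at a log2 fold change of 1.45 (adjusted p = 0.0784). The share of all genes at that threshold was not taken without WT 4. WT 4 had the highest level of Gm13339 of the 14 libraries, at 14032 CPM, and the 3 other WT libraries had 2561 to 6423 CPM. Since Xist was high in 3 libraries labelled WT and 2 labelled YG8-800, the test was repeated with that as a covariate, and 0 of the 9 were called. Summed markers of macrophages were apart between the labels, at 77.4 to 135 CPM in WT and 63.0 to 69.2 CPM in YG8-800. Their part in the levels of the 9 genes was not tested.

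KIKO-700 males were compared with females over 11801 genes in the same way. By adjusted p, 0 of the 9 were called by edgeR, beside 0.0678% of all genes (8 genes), and at an unadjusted p under 0.05 again 0 of the 9, beside 7.14% of all genes. DESeq2, limma-voom and limma-trend called 0 of 9. The log2 fold changes of M over F ranged from -0.16 for Gm28437 to 0.22 for Gm13339 and Gm28439, with a median of 0.11 beside 0.0059 over all genes, and 7 of the 9 were above 0. Without KIKO-700 M 3 only 2 of the 9 were above 0, Gm13339 (0.11) and Gm28439 (0.089), and without F 3 it was 5 of the 9, while leaving out any other library kept the count at 7. Without KIKO-700 M 1, the library with the lowest share on the 9 genes, edgeR called 864 of 12245 genes. Among them was 1 of the 9, Gm28661, at a log2 fold change of 0.48 (adjusted p = 0.0242). At an unadjusted p under 0.05 it was 5 of the 9, but the share of all genes at that threshold was not taken without KIKO-700 M 1. The normalised levels of the 2 sexes were apart in none of the 9, against 12.5% of 13023 genes.

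The ratio of each Gm-named gene to its chromosome M gene was compared between groups by exact two-sided permutation of the libraries, with 18 p-values adjusted together. None had an adjusted p under 0.05, and the smallest adjusted value was 0.450. The design allows no p below 0.0286 with 4 against 4 and none below 0.10 with 3 against 3. With 18 p-values adjusted together, no adjusted p under 0.05 could be reached from these floors, whatever the data. The lack of a call was thus fixed in advance and says nothing on whether the ratios differ. In YG8-800 against WT the differences of mean log2 ratio ranged from -0.16 for Gm29216 to 0.48 for Gm28437 (exact p = 0.286, n = 4 each). Between the sexes of KIKO-700, 4 ratios had every male library below every female library and hence the smallest p the design allows. In the same libraries the normalised levels of 12.5% of 13023 genes were apart in either direction. That share is for levels of single genes, and none was taken for ratios, so that the 4 cannot be called an excess. The log2 ratio of Gm28437 to mt-Co3 was 4.13 ± 0.40 in M and 4.82 ± 0.15 in F (SD, exact p = 0.10, adjusted 0.450, n = 3 each). For Gm28661 to mt-Co2 the means were 4.21 ± 0.21 and 4.75 ± 0.021, for Gm10925 to mt-Atp6 5.89 ± 0.22 and 6.23 ± 0.068, and for Gm10222 to mt-Nd4l 4.69 ± 0.46 and 5.22 ± 0.039, each with the same exact p = 0.10. The fifth nearly whole copy, Gm28438, had 4.73 ± 0.41 in M and 5.22 ± 0.16 in F, with overlapping groups (exact p = 0.200, adjusted 0.514). Set against the sum of the protein-coding chromosome M genes in place of its own counterpart, the difference of M minus F was -0.23 for Gm28437, -0.056 for Gm10925, 0.019 for Gm28661 and -0.032 for Gm10222, in place of -0.69, -0.34, -0.54 and -0.54. The ratios share their libraries and are not independent of each other. Summed markers of fat cells (61.2 to 63.8 CPM in F and 17.6 to 23.5 in M) and of skeletal muscle (72.3 to 98.4 and 108 to 288 CPM) were also apart between the sexes, liver markers stood at 421 CPM in M 2 beside at most 30.4 CPM in the other 5, and their part in these ratios was not tested.

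In these pairs the log2 fold change between the sexes was larger in the chromosome M gene than in the Gm-named gene. The level of mt-Co3 was 3484, 3039 and 3123 CPM in KIKO-700 F 1 to 3 and 3243, 6072 and 4934 CPM in M 1 to 3, so that M 2 and M 3 were above all females and M 1 was among them. By edgeR its log2 fold change of M over F was 0.58 (SE 0.22, unadjusted p = 0.0207, adjusted p = 0.633). With the counts of Gm28437 added to those of mt-Co3 it was -0.12 (SE 0.16, unadjusted p = 0.445). The same addition moved mt-Co2 from 0.70 (unadjusted p = 0.0131) to 0.20 (unadjusted p = 0.458), mt-Nd4l from 0.65 (unadjusted p = 0.0226) to 0.062 (unadjusted p = 0.705), mt-Nd3 from 0.69 (unadjusted p = 0.0600) to 0.13 and mt-Atp6 from 0.39 (unadjusted p = 0.0706) to 0.035. None of these had an adjusted p under 0.05 on either count. Of the 3 genes with short or divergent copies, mt-Nd4 went from 0.023 to 0.028, mt-Nd2 from 0.19 to 0.20, and mt-Co1 turned from 0.013 to -0.076. In YG8-800 against WT the sign turned for mt-Co3 (-0.28 to 0.19), mt-Nd4l (-0.18 to 0.32) and mt-Atp6 (-0.11 to 0.12), with adjusted p between 0.919 and 0.977. There mt-Co1 went from 0.27 to 0.15. This addition was chosen after seeing the data. In the 5 pairs with nearly whole copies, 91.0% to 97.4% of the counts lay on the Gm-named genes. The summed value therefore had to lie near the fold change of the Gm-named gene alone. Between the sexes that was -0.16 for Gm28437, 0.18 for Gm28661, 0.042 for Gm10222, 0.11 for Gm28438 and 0.029 for Gm10925. For these pairs the addition is no separate test of the chromosome M genes.

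**Figure D5:**
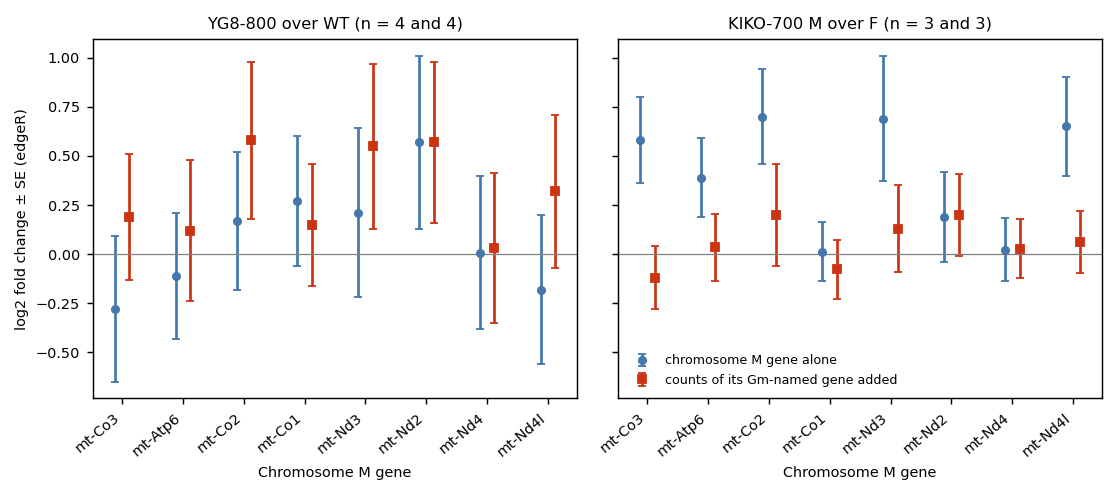
Log2 fold change ± SE by edgeR of the 8 chromosome M genes that a Gm-named gene matches, alone (circles) and with the counts of that gene added (squares), for YG8-800 over WT (left) and KIKO-700 M over F (right). On the right the circles of mt-Co3, mt-Atp6, mt-Co2, mt-Nd3 and mt-Nd4l lie between 0.39 and 0.70 and their squares between -0.12 and 0.20. In these pairs the Gm-named gene holds nearly all counts, so that the squares had to lie near its own fold change.

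Other genes of mitochondrial transcription and RNA processing were read from a list of 36 genes, such as those of the mitochondrial RNA polymerase and its factors and of the nucleases that cut the precursor. Of the 31 tested in YG8-800 against WT, 0 were called by edgeR at an adjusted p under 0.05, and 3 were higher and 0 lower at an unadjusted one, beside 3.04% higher and 3.01% lower over all genes. They were Tfb1m, a methyltransferase of mitochondrial ribosomal RNA (log2 fold change 1.01, adjusted p = 0.786), Tfb2m (0.96, adjusted p = 0.786), a factor that opens mitochondrial promoters, and Slirp (0.86, adjusted p = 0.786), a partner of the RNA-stabilising protein Lrpprc. The median over the 31 was 0.13. Of the 28 tested in KIKO-700, 0 were called, with 1 higher (Trmt10c, a subunit of mitochondrial RNase P, 1.13, adjusted p = 0.668) and 1 lower (Slirp, -0.38, adjusted p = 0.650) at an unadjusted p under 0.05, beside 3.39% higher and 3.75% lower over all genes, and the median was 0.02.

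For each of the 9, the 3 genes with the most similar pattern over the 14 libraries were sought by Spearman correlation among 13023 genes, as a description. The libraries pool both experiments, so that a coefficient can reflect the difference between them. For Gm29216, Gm42418 and Gm28439 the ranges of the experiments did not overlap. None of the 8 copies had its own chromosome M gene among the 3. Gm28661 came nearest to Ndufa1 (0.98), a nuclear gene for a subunit of complex I, which was also the second for Gm28438 (0.96). Gm10925 and Gm10222 were near each other (0.88), and Gm10222 was nearest to mt-Nd5 (0.89). The nearest to Gm29216 was the processed pseudogene Gm38247 (0.95), to Gm13339 the processed pseudogene Gm5619 (0.92) and to Gm28439 the gene Znrd1as (0.96), with Gm13340, the chromosome 2 copy of mt-Co1 also close (0.95).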

How the data were processed

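Heart RNA of 14 mice was read as QuantSeq 3′ libraries. The authors deposited counts, whole numbers of reads per Ensembl gene without normalization, with 1 library per file. For alignment and counting on GRCm38 the submitters list STAR (2.5.0a) with HTSeq (0.6.1), but the study's methods list Rsubread with featureCounts. How reads that fit several places were counted is not stated in the sources used here. The study's methods give default settings for the Rsubread alignment and nothing further on such reads. For copies with the same letters that choice decides on which gene a read is counted. Molecular identifiers are not mentioned, so that errors cover the libraries as counted.

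Of 54532 gene identifiers, 54495 were matched to GENCODE M21. Transcript sequences of GENCODE M21 and their positions were used to rebuild the genes of chromosome M, and blastn 2.17.0 aligned nuclear gene models to them. No other genome was used. Each gene was paired with the chromosome M gene that it matched. Low genes were dropped by filterByExpr, TMM factors applied and groups tested in edgeR 4.0.16 under R 4.3.3 (quasi-likelihood, robust, adjusted by Benjamini and Hochberg, threshold 0.05), with DESeq2 1.42.0 and limma 3.58.1 as alternatives. Ratios and correlations were tested by exact permutation in Python 3.11.15. Libraries were called separate clusters where a gap over 0.5 of the range left at least 2 on each side, a rule chosen after seeing the data.

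Groups came from the labels. The 9 genes and the gene lists were chosen with earlier results of these data known. The text names all 9, the 3 Gm-named genes below the cutoff, the matched chromosome M genes and those at 5000 CPM or more, some of the 3 genes nearest in pattern to each, and of the list of 36 those with the smallest p. The check of the targeted gene is not reported here. On simulated data with the spread of these libraries the edgeR test found 7 of 100 genes with a true log2 change of 1 and 78 of 100 with one of 2 in the YG8-800 experiment (11676 genes, 9 false calls), and 63 and 96 of 100 in the KIKO-700 experiment (11600 genes, 12 false calls). Alternatives were other scalings, filters and tests, the replicate number as a block, and leaving out each library.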

Additional observations from a re-analysis of the deposited data

Results flagged for a closer look

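Gm28438, the copy of mt-Nd3, was counted at 5690.2 CPM in WT 1, far from the other 3 libraries labelled WT, which had 14165 to 15266 CPM, a gap of 0.885 of the whole range. In all, 40 sets of 4 values were examined in this way (levels and ratios of the 9 genes and their sums, in WT and in YG8-800), and this was the only value found. Chance alone gives about 1 such value in every 20 sets, so that 1 value in 40 sets is not more than chance gives. WT 1 also had the lowest level of Gm10925, Gm28661, Gm13339 and Gm10222 in the YG8-800 experiment, and the highest of Gm42418. KIKO-700 groups of 3 were not examined.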

How the results depend on the processing

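With edgeR, 0 of the 9 genes were called in YG8-800 against WT under every scaling, filter, test and left-out library tried. Without a filter 3 had an unadjusted p under 0.05, and the share of all genes at that threshold was not taken there. The number over all genes went from 0 of 11875 to 107 of 24532 without a filter, 7 of 11875 by DESeq2 and 146 of 12276 without WT 4. In KIKO-700 the number of the 9 called was 0 in every alternative but leaving out a library, where it ranged from 0 to 1 (Gm28661, without KIKO-700 M 1). The number over all genes went from 8 of 11801 to 105 of 23238 without a filter and 18 of 11801 by DESeq2. It was 2 of 10453 with at least 10 counts in every library and 864 of 12245 without KIKO-700 M 1. Fold changes that crossed 0 without a left-out library were those of Gm10925 (-0.062 to 0.38) and Gm42418 (-0.087 to 0.62) in YG8-800 against WT, and of Gm10925 (-0.12 to 0.17), Gm28661 (-0.086 to 0.48), Gm28438 (-0.13 to 0.34), Gm42418 (-0.14 to 0.59) and Gm10222 (-0.069 to 0.15) in KIKO-700. By library size alone Gm10925, Gm29216 and Gm42418 turned to -0.021, -0.087 and -0.068 in YG8-800 against WT. With the counts of the copy added, mt-Atp6, mt-Co3 and mt-Nd4l turned to 0.12, 0.19 and 0.32 there, and mt-Co1 and mt-Co3 to -0.076 and -0.12 in KIKO-700. For mt-Atp6, mt-Co3 and mt-Nd4l the copy holds nearly all counts of the pair, so that the sum had to follow the copy. No ratio passed an adjusted p of 0.05 in any alternative, but with so few libraries none could have passed, so that this is no sign of stability. Against the sum of protein-coding chromosome M genes, the ratio difference of Gm10925 turned to -0.0052 in YG8-800 minus WT and that of Gm28661 to 0.019 in M minus F, and against mt-Rnr2, chosen after seeing the data, that of Gm42418 turned to 0.085 in M minus F. Leaving out a library moved the ratio differences of Gm42418 between -0.45 and 0.38 and of Gm13339 between -0.064 and 0.88 in YG8-800 minus WT, and between -0.33 and 0.44 and between -0.067 and 0.14 in M minus F. Of the correlations, that of Gm13339 in KIKO-700 alone passed, as 1 relation, with both levels divided by the counts outside chromosome M and the 9 genes (0.96, adjusted exact p = 0.0417, range of adjusted p over its alternatives 0.0417 to 0.503). Those of Gm29216, Gm13339 and Gm28439 in the YG8-800 experiment turned to 0.42 on that scale, 0.12 with TMM and -0.49 without the 2 farthest libraries, and leaving out a library moved Gm28437 between -0.30 and 0.67, Gm10925 between -0.13 and 0.36 and Gm28439 between -0.47 and 0.28. The causes of these turns were not tested. The difference in summed share moved by less than its pooled SD in each alternative, but in KIKO-700 M minus F it went from -0.542 points to 0.946 without M 1, -1.82 without M 3 and 0.110 of the counts outside chromosome M, and in YG8-800 minus WT from 2.17 to 1.14 without WT 1 and 3.24 outside chromosome M. The summed log2 ratio to chromosome M in YG8-800 minus WT went from 0.15 to -0.01 without YG8-800 2, 0.066 without WT 3 and 0.25 without YG8-800 3. The replicate numbers did not pair libraries (correlations of same-numbered libraries from -0.23 to 0.25, with 2 of 8 and 0 of 6 libraries nearest to their own number). With the number as a replicate block 0 of the 9 genes and 0 of the ratios were called in either comparison, where the ratios could not have been called with so few pairs. On simulated data a log2 change of 1 was mostly missed at the spread of the YG8-800 experiment, with 4 libraries a group, and was found for 63 of 100 genes at that of the KIKO-700 experiment, with 3.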

Other observations

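Transfer RNA genes of chromosome M, which none of the 9 Gm-named genes matches, had the smallest p-values of that chromosome between the sexes of KIKO-700. Of 33 chromosome M genes tested by edgeR, 31 had a log2 fold change of M over F above 0, with a median of 0.55, 12 had an unadjusted p under 0.05 (7.14% of all genes did) and 0 an adjusted one. For the chromosome M genes these values were not repeated with a library left out. The smallest p-values were those of the transfer RNA genes mt-Tt (0.87, SE 0.16, adjusted p = 0.126) and mt-Tl2 (1.31, SE 0.27, adjusted p = 0.239), which were counted at only 69.2 to 148 CPM and 3.33 to 11.9 CPM in these libraries. Of the 9 Gm-named genes in the same comparison, 7 were above 0, with a median of 0.11, but without KIKO-700 M 3 only 2 were. Markers of fat cells and of skeletal muscle were also apart between the sexes, at 61.2 to 63.8 CPM in F and 17.6 to 23.5 CPM in M, and at 72.3 to 98.4 and 108 to 288 CPM, and their part in these changes was not tested. In YG8-800 against WT, 15 of 33 chromosome M genes were above 0, with a median of -0.057 and 0 with an unadjusted p under 0.05, beside 9 of the 9 Gm-named genes above 0 with a median of 0.34. By library size alone 6 of these 9 were above 0, and leaving out a library gave 8 or 9. The 9 genes and the chromosome M genes share libraries and scaling, and no test was made of the difference between the sets.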
